A study of Rattus with 6 samples.

Results

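The fibrillar collagens of types I, III, V and XI were followed through 7 genes, Col1a1, Col1a2, Col3a1, Col5a1, Col5a2, Col5a3 and Col11a1, chosen by their symbols among the 21378 genes of the deposited count table. All 7 were present and all 7 passed the filter on low counts. RNA was sequenced after poly(A) selection from rat cardiac fibroblasts in culture, which make the heart's collagen matrix; they were bought commercially and the labels call them a cell line. Of 6 libraries, 3 were titled siCtrl and 3 siNONO, the latter from cells that received, by lipofection, siRNA targeting Nono, whose protein product binds nucleic acids in the nucleus and is a part of paraspeckles. The labels call the controls both siCtrl and empty-vector cells and name a harvest at 48 h for other assays (RT-qPCR and western blots) but none for sequencing. They do not say whether replicates were separate cultures, so p-values reflect spread among these samples that may be technical.

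Fibrillar collagens are rod-like trimers that assemble side by side into the banded fibrils that give tissue its tensile strength. Collagen I, made of Col1a1 and Col1a2 chains, is the bulk of the cardiac scar and interstitium, and collagen III, a trimer of Col3a1 chains alone, is laid down with it. Collagens V and XI are minor components that sit partly inside the fibril, start its assembly and limit its width. In fibroblasts the usual collagen V trimer joins Col5a1 with Col5a2 chains, and Col5a3 and Col11a1 chains can enter related trimers.

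Total counts ranged from 27792357 to 33365588 per library, and 14412 genes were tested with edgeR's quasi-likelihood test, whose adjusted p-values are used throughout. CPM values are counts scaled for depth with TMM factors, and a log2 fold change is siNONO minus siCtrl with its standard error (SE). FPKM values, the authors' values scaled for gene length and depth, were used to compare genes with each other. Nono itself stood between 233 and 247 CPM in the siCtrl libraries and between 69.9 and 76.1 CPM in the siNONO libraries, a log2 fold change of -1.70 ± 0.05 (adjusted p = 4.57e-11). The fibroblast markers were present, with Pdgfra at 623 ± 6.08 CPM and Thy1 at 250 ± 5.22 CPM in siCtrl (SD, n = 3). Their summed level over all 10 listed markers was 7180 to 7280 CPM in siCtrl and 6430 to 6610 CPM in siNONO. Of these markers 2 were raised and 4 lowered, among them Ddr2 and Lum, which also stand in lists below. Over all genes tested 16.2% were raised and 15.9% lowered, which applies to every marker list here. Of the cartilage markers only Sox9 was tested (11.8 ± 1.11 CPM in siCtrl, adjusted p = 0.0805 for its change), and Col2a1, the collagen of cartilage fibrils, had between 0 and 3 counts in each library. Markers of other cell types were summed likewise. Smooth muscle and pericyte markers lay at 120 to 129 CPM in siCtrl and at 107 to 111 CPM in siNONO (4 of 9 lowered, 1 raised), with Rgs5 at or near 0. Epicardial and mesothelial markers lay at 194 to 209 CPM and at 231 to 234 CPM (3 of 7 raised), with Krt19 at or near 0. Macrophage and leukocyte markers stood at 1300 to 1490 CPM against 1250 to 1340 CPM (3 of 10 lowered). Cardiomyocyte markers summed to 145 to 162 CPM in siCtrl and 110 to 118 CPM in siNONO, nearly all from Tnnt2, which fell, with Ryr2 and Ttn at or near 0. Schwann and neuronal markers summed to 83.3 to 88.6 and 127 to 130 CPM, mostly from Tubb3, which rose, and endothelial markers to 38.2 to 40 and 39.5 to 42.1 CPM (1 of 7 raised). Their part in the results was not tested, and in bulk RNA fewer cells of a type and less RNA per cell cannot be told apart.

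Per unit length, the chains fell into 3 tiers. In siCtrl libraries Col1a1 had 2429 ± 106 FPKM, Col1a2 1403 ± 73.9 FPKM and Col3a1 1257 ± 111 FPKM (SD, n = 3 each). By mean FPKM over the 6 libraries these were ranked 28, 71 and 80 of 21081 genes, and by mean count 2, 5 and 8 of 21378. The collagen V chains that form its usual trimer came next, with Col5a2 at 132.0 ± 6.80 FPKM and Col5a1 at 95.3 ± 3.97 FPKM. Col11a1 (7.07 ± 0.681 FPKM) and Col5a3 (5.63 ± 0.345 FPKM) formed the lowest tier. The siCtrl ranges of neighbours in this order did not overlap except for Col1a2 (1330 to 1478 FPKM) and Col3a1 (1189 to 1385 FPKM), although Col1a2 exceeded Col3a1 within every library. The order was the same in siNONO libraries, with no overlapping neighbours: even there Col1a2 (1502 to 1520 FPKM) lay above Col3a1 (1257 to 1349 FPKM).

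**Figure D1:**
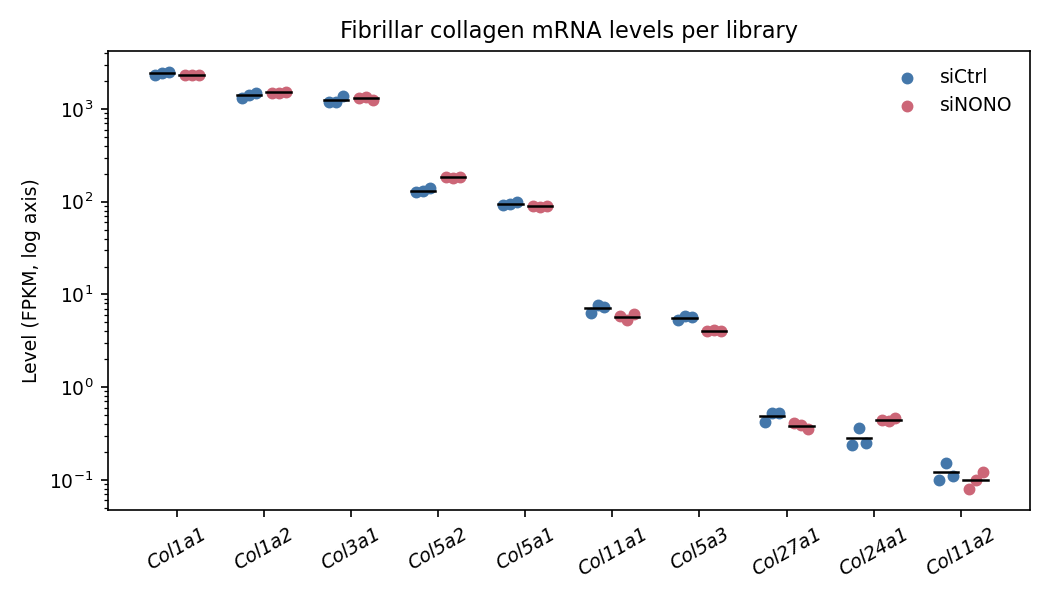
Level of each fibrillar collagen mRNA in FPKM (log axis) in the 3 siCtrl (blue) and 3 siNONO (red) libraries; points are libraries and bars group means. Col1a1, Col1a2 and Col3a1 lie above 1000 FPKM, Col5a1 and Col5a2 near 100 FPKM, Col11a1 and Col5a3 below 10 FPKM, and Col27a1, Col24a1 and Col11a2 below 1 FPKM.

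Nono knockdown went with a shift among the collagen V mRNAs and little change in the mRNAs of the abundant collagens. Col5a2 rose 1.35-fold, Col5a3 fell to 0.697 and Col11a1 to 0.789 of the control level, and Col5a1 fell slightly, to 0.909. Col1a1, Col1a2 and Col3a1 did not pass the test. Of the 7 genes, 4 were called by edgeR at an adjusted p threshold of 0.05, against 32.1% of all genes tested. The raised gene compares with 16.2% of all genes raised, and the 3 lowered ones with 15.9% lowered. The groups did not overlap in CPM for 5 of the 7, against 45.0% of all genes tested. This count depends on scaling, since the TMM factors were 0.9668 to 0.9945 in siCtrl and 1.0066 to 1.0239 in siNONO. In FPKM, without these factors, Col1a1 overlapped and Col1a2 did not. The median log2 fold change was -0.10 over the 7 genes and 0.00 over all genes tested. The median absolute change of all called genes was 0.30 on the log2 scale, which Col5a2, Col5a3 and Col11a1 exceeded and Col5a1 did not.

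Col1a1 (gene-Col1a1, chromosome 10), the more abundant chain of collagen I, had 15399.5, 15693 and 16483 CPM in siCtrl (replicates 1 to 3 in order, here and below) and 14536, 14924 and 14822 CPM in siNONO. Every siNONO library lay below every siCtrl library on this scale, but in FPKM, which carries no TMM factor, the groups overlapped. The log2 fold change was -0.10 ± 0.04 (adjusted p = 0.0855), with a 95% interval, not adjusted for the number of genes, of 0.872 to 0.993 times the control. Col1a1 did pass without siCtrl replicate 1 (adjusted p = 0.0344), with no filter on low counts (0.0249), with the DESeq2 Wald test (0.0359), and with a gene length correction (0.00262).

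Col1a2 (gene-Col1a2, chromosome 4), its partner chain, had 6762, 6928 and 7367 CPM in siCtrl and 7247, 7316 and 7324 CPM in siNONO. On this scale the siNONO libraries lay close together within the upper part of the siCtrl range. In FPKM every siNONO library (1502 to 1520) lay above every siCtrl library (1330 to 1478). Its log2 fold change was 0.06 ± 0.04 (adjusted p = 0.367), with an interval of 0.973 to 1.11 times the control. With scaling by total library size it was 0.107 and did not pass either (adjusted p = 0.0591).

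Col3a1 (gene-Col3a1, chromosome 9), the only chain of collagen III, had 6504, 6283 and 7373 CPM in siCtrl and 6696, 7020 and 6470 CPM in siNONO. All siNONO values lay within the siCtrl range, which siCtrl replicate 3 set at its upper end. Its log2 fold change was 0.00 ± 0.06 (adjusted p = 0.984), with an interval of 0.919 to 1.09 times the control.

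Col5a1 (gene-Col5a1, chromosome 3), the chain shared by all common collagen V trimers, had 848, 861 and 903 CPM in siCtrl and 792, 784 and 799 CPM in siNONO. The groups did not overlap, and the gap between them was narrower than the spread of the controls. The log2 fold change was -0.14 ± 0.04 (adjusted p = 0.0205). Leaving out siCtrl replicate 3 ended this call (adjusted p = 0.103), as did leaving out siNONO replicate 1 (0.0778) or siNONO replicate 3 (0.0513). It was also lost with scaling by total library size (0.12) and in all fits of FPKM values (0.109 to 0.118).

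Col5a2 (gene-Col5a2, chromosome 9), the second chain of the usual collagen V trimer, had 911, 921 and 989 CPM in siCtrl and 1273, 1262 and 1284 CPM in siNONO. Every siNONO library was above every control by a wide margin, and the siNONO libraries differed from each other by less than the controls did. The log2 fold change was 0.44 ± 0.04 (adjusted p = 5.08e-06), with an interval of 1.27 to 1.44 times the control. It passed in all 22 alternative fits, with values from 0.41 to 0.49.

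Col5a3 (gene-Col5a3, chromosome 8), a collagen V chain of more restricted expression, had 40.8, 44.8 and 43.7 CPM in siCtrl and 29.8, 30.4 and 29.9 CPM in siNONO. The siNONO libraries were again nearly equal to each other and clear of the controls. Their coefficient of variation, 1.12%, was below the 2.99% that counting error alone would give, so this closeness understates the error. It had a log2 fold change of -0.52 ± 0.05 (adjusted p = 3.33e-06). It passed in all 22 alternative fits, with values from -0.56 to -0.39.

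Col11a1 (gene-Col11a1, chromosome 2), a collagen XI chain best known from cartilage and also made by activated fibroblasts, had 56.1, 65.9 and 63.8 CPM in siCtrl and 49.4, 45.0 and 52.3 CPM in siNONO. The groups did not overlap, with the lowest control, siCtrl replicate 1, nearest to the siNONO values. The log2 fold change was -0.34 ± 0.07 (adjusted p = 0.00121). It passed in all 22 alternative fits, with values from -0.41 to -0.25.

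**Figure D2:**
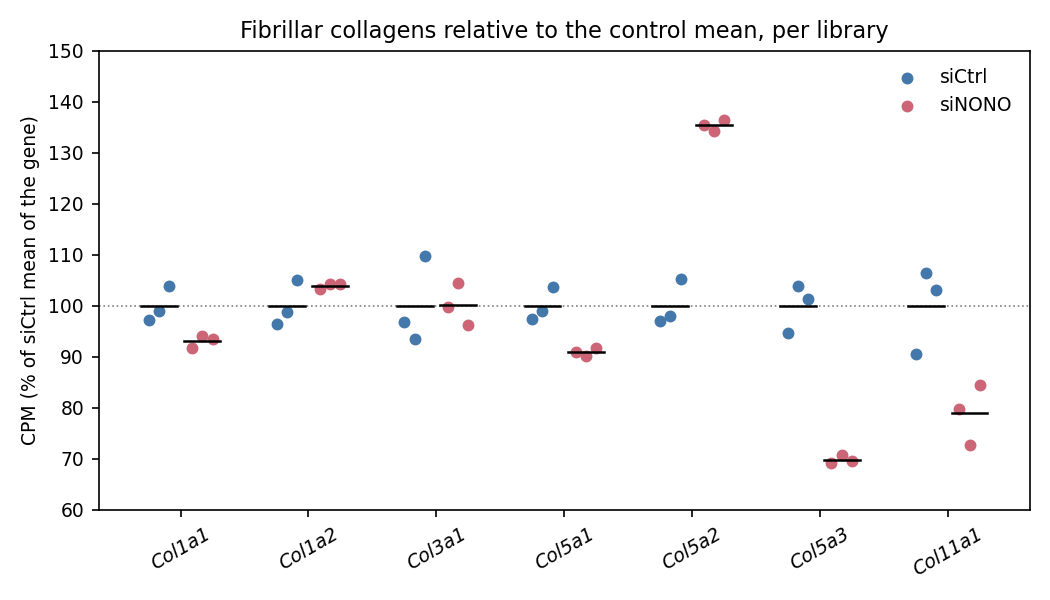
CPM of each gene in each library as a percentage of its siCtrl mean; points are libraries (siCtrl blue, siNONO red), bars are group means and the dotted line marks 100%. The Col5a2 siNONO libraries stand above all controls, those of Col1a1, Col5a1, Col5a3 and Col11a1 below all controls, and those of Col1a2 and Col3a1 within the control range.

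The spread of these values was wider among the controls than among the siNONO libraries for each of the 7 genes. The 7 genes share the same libraries and are not separate observations, and the share over all genes was not determined. The coefficient of variation of CPM ran from 3.34% (Col5a1) to 8.57% (Col3a1) in siCtrl and from 0.579% (Col1a2) to 7.46% (Col11a1) in siNONO. Counting error alone would give 0.145% for Col1a1, 0.538% for Col5a2, 2.42% for Col11a1 and 2.99% for Col5a3, so depth did not limit the abundant chains. Within siCtrl, replicate 3 was the highest library for Col1a1, Col1a2, Col3a1, Col5a1 and Col5a2, and replicate 1 was the lowest for every gene except Col3a1. Together the 7 genes took 2.95%, 3.06% and 3.27% of all counts in siCtrl and 3.13%, 3.16% and 3.15% in siNONO. The siNONO values fell inside the control range, and the difference of means, 0.0518 percentage points upward, was -0.0210 without siCtrl replicate 1. Scaling factors computed without the 7 genes gave the same log2 fold changes to 2 decimals.

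Ratios between chains within a library do not depend on how libraries are scaled, and 8 of them were compared in FPKM. The groups did not overlap for 7 of the 8, but the ratios share chains and are not separate observations. Over all pairs of tested genes with at least 20 CPM the share without overlap was 57.3%, and the median absolute change of such a ratio was 0.19 on the log2 scale in a regular sample of 2465424 of these pairs. With 3 against 3 libraries the exact two-sided permutation p cannot go below 0.1, and it was 0.1 for those 7 ratios (0.114 after Benjamini-Hochberg adjustment over the 8).

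The largest changes of ratio were those that set Col5a2 against other chains. Col5a2 to Col5a1 stood at 1.38, 1.37 and 1.40 in siCtrl and at 2.06 in each siNONO library, a log2 change of 0.57 ± 0.01 (SE). The ratio of the mRNAs for the usual collagen V trimer thus moved 1.49-fold. Counting error alone is 0.538% for Col5a2 and 0.624% for Col5a1. The siNONO ratios (SD 0.00099 around 2.06) lay closer together than that, so their spread understates the error. The same applies to the siNONO shares of Col5a2 and Col5a1 given below. Protein chains and trimers are not measured by these libraries. Col5a2 to Col5a3 went from 23.5 ± 1.21 to 45.4 ± 0.828 (SD, n = 3 each), and Col5a3 to Col5a1 from 0.0591 ± 0.00261 to 0.0454 ± 0.000850. Of the summed FPKM of the collagen V chains, Col5a2 made up 56.6% ± 0.335 in siCtrl and 66.3% ± 0.01 in siNONO, Col5a1 40.9% ± 0.257 and 32.2% ± 0.0200, and Col5a3 2.42% ± 0.115 and 1.46% ± 0.0269. Col5a2 lies next to Col3a1 in the gene order of the RefSeq GRCr8 assembly. The ratio of Col5a2 to this neighbour went from 0.105 ± 0.00466 to 0.142 ± 0.00701, a log2 change of 0.43 ± 0.06.

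For collagen I, the ratio of Col1a1 to Col1a2 was 1.75, 1.74 and 1.71 in siCtrl and 1.54, 1.56 and 1.55 in siNONO. The gap between groups was several times wider than the spread in either, and the log2 change was -0.16 ± 0.01, below the median absolute change of the sampled gene pairs. Col5a1 kept close to Col1a1: their ratio was 0.0392 ± 9.37e-05 in siCtrl and 0.0384 ± 0.000699 in siNONO, a log2 change of -0.03 ± 0.02. Col3a1 to Col1a1 (0.517 ± 0.0287 and 0.557 ± 0.0213) overlapped between the groups, with an exact permutation p of 0.2. Col11a1 to Col5a1 went from 0.0741 ± 0.00541 to 0.0643 ± 0.00427, its groups separated by a narrow gap.

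**Figure D3:**
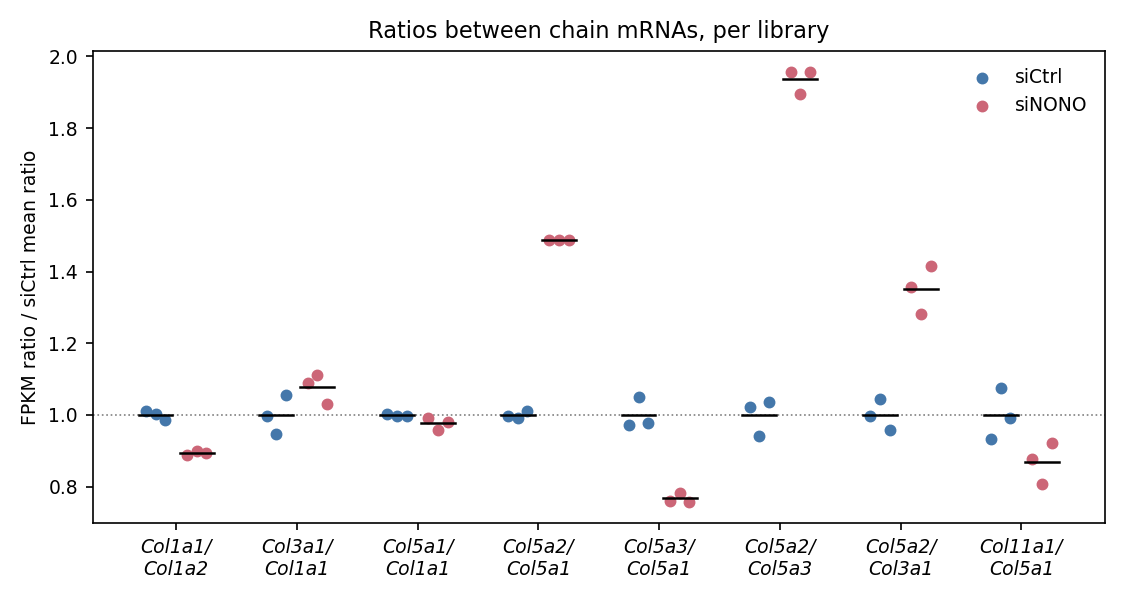
Ratio of the FPKM of 2 chains in each library divided by the siCtrl mean of that ratio; points are libraries (siCtrl blue, siNONO red) and bars group means. Col5a2/Col5a1 is 1.49-fold and Col5a2/Col5a3 1.94-fold the control ratio, Col1a1/Col1a2 is 0.895 of it, and Col3a1/Col1a1 overlaps.

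Composition by group followed the same lines. Col1a1, Col1a2 and Col3a1 together made up 95.5% ± 0.0503 of the FPKM of the 7 genes in siCtrl and 94.8% ± 0.114 in siNONO. The share of the collagen V and XI chains was 4.5% ± 0.0495 and 5.23% ± 0.115, and within it the share of Col5a2 alone went from 2.48% ± 0.00929 to 3.40% ± 0.0711. These shares are sums over the chosen genes and were not tested.

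Of the other genes for fibrillar collagen chains, each had less than 1 FPKM in both group means, below Col5a3. Col24a1, a minor fibrillar collagen of developing bone and eye, had 1.94, 2.78 and 1.98 CPM in siCtrl and 3.32, 3.28 and 3.55 CPM in siNONO. The groups did not overlap, and it rose by 0.60 ± 0.16 on the log2 scale (adjusted p = 0.0115), a call lost without siCtrl replicate 3 (0.0526). Col27a1, a fibrillar collagen of cartilage, had 4.47, 5.35 and 5.37 CPM in siCtrl and 4.11, 3.91 and 3.49 CPM in siNONO. It fell by 0.41 ± 0.13 (adjusted p = 0.0230), a call lost without siCtrl replicate 2 (0.0692), siCtrl replicate 3 (0.0853) or siNONO replicate 3 (0.0910). Col11a2, a collagen XI chain, had 1.27 ± 0.248 CPM in siCtrl and 0.975 ± 0.177 CPM in siNONO and did not pass (adjusted p = 0.257). Col2a1 was at or below 3 counts in every library, the limit that a count of 0 allows (0.0899 to 0.108 CPM), and was not tested.

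**Figure D4:**
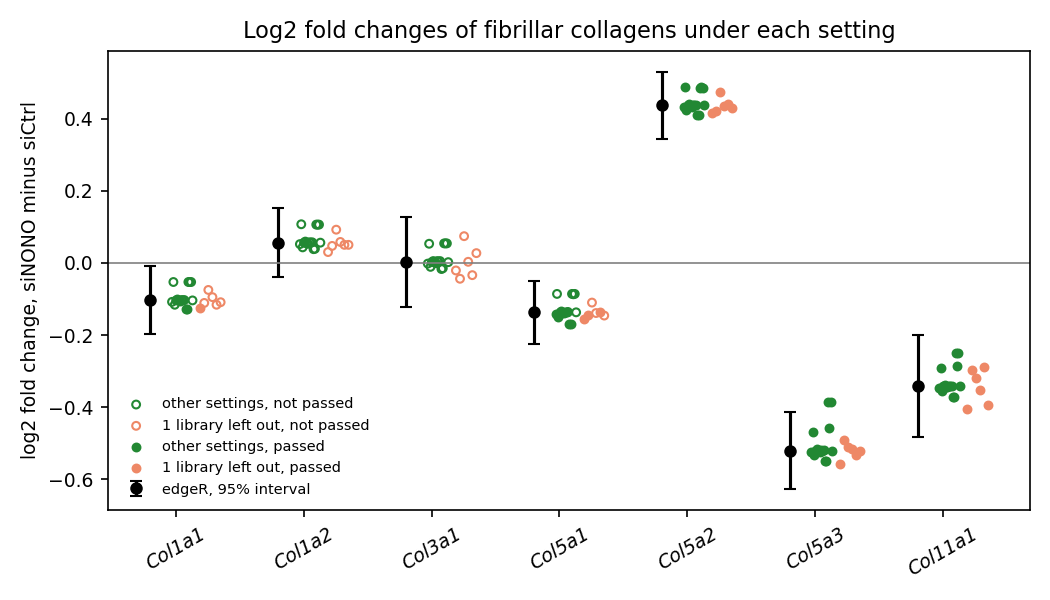
Log2 fold change of each gene by edgeR (black, with 95% interval), under 16 other settings (green) and with 1 library left out (orange); filled points passed their threshold and open ones did not. Col5a2, Col5a3 and Col11a1 passed throughout, Col5a1 and Col1a1 in part, and Col1a2 and Col3a1 in none.

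Of 18 tested genes for procollagen hydroxylation and chaperones, which act inside the cell, 2 rose, 4 fell and 12 did not pass, where 32.1% of all genes tested were called. The list had a median log2 fold change of -0.02 against 0.00 for all genes tested. The raised members were Tmem38b, an ion channel of the endoplasmic reticulum (0.28 ± 0.08, adjusted p = 0.0138), and the prolyl hydroxylase subunit P4ha3 (0.20 ± 0.04, adjusted p = 0.00251). The largest falls were those of the prolyl 3-hydroxylase P3h2 (-0.56 ± 0.18 at about 2 CPM, adjusted p = 0.0294) and of Fkbp10, a prolyl isomerase that assists collagen folding (532 ± 11.0 to 470 ± 11.1 CPM, -0.18 ± 0.04). The P3h2 call was lost in 5 of the 6 fits that left a library out (up to 0.129), and the Tmem38b call without siNONO replicate 1 (0.0745), which left 1 raised gene. The collagen chaperone Serpinh1, chosen after its values were seen, had 0.02 ± 0.05 and did not pass.

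Outside the cell, of 6 tested propeptide cleavage genes 3 fell and the other 3 did not pass (median -0.14), against 15.9% of all genes lowered. Among them the procollagen N-proteinases Adamts3 (22.7 ± 2.25 to 17.4 ± 1.65 CPM, -0.39 ± 0.08) and Adamts2 (291 ± 11.2 to 241 ± 5.53 CPM, -0.27 ± 0.04) fell most. Pcolce, named after its values were seen, fell least (-0.19 ± 0.05, adjusted p = 0.00955). Its call was lost without siNONO replicate 1 (0.0563) or siNONO replicate 3 (0.0509), and in some fits of FPKM values (up to 0.0584). Of 5 lysyl oxidases 3 rose and 1 fell (median 0.22), against 16.2% of all genes raised. Lox itself rose by 0.93 ± 0.04 and Loxl4 by 0.60 ± 0.08, while Loxl3 had -0.29 ± 0.05. Of 13 tested genes for molecules of the fibril surface 8 fell, 1 rose and 4 did not pass (median -0.23), against 15.9% of all genes lowered and 16.2% raised. With total library size 7 fell and 2 rose. The keratan sulfate proteoglycan lumican (Lum) dropped from 35.6 ± 2.40 to 18.9 ± 0.873 CPM (-0.91 ± 0.06, adjusted p = 1.68e-07), and periostin (Postn) had -0.64 ± 0.05. The raised gene, the proteoglycan Ogn (0.17 ± 0.05, adjusted p = 0.0114), lost its call without siCtrl replicate 2 (0.0511) and without siNONO replicate 1 (0.0658).

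Of 8 tested collagen receptor genes 2 rose and 2 fell (median -0.03), against 16.2% of all genes raised and 15.9% lowered. Itga1, the alpha subunit of a collagen-binding integrin, dropped from 211 ± 3 to 166 ± 9.95 CPM (-0.35 ± 0.05, adjusted p = 7.35e-05). The other calls were Itga11 (-0.44 ± 0.16, adjusted p = 0.0445), the collagen-binding receptor kinase Ddr2 (0.13 ± 0.04, 0.0232) and the beta subunit Itgb1 (0.12 ± 0.04, 0.0347). These 3 calls were each lost in at least 3 leave-one-out fits, with adjusted p up to 0.233, 0.119 and 0.144. Of 7 tested genes for collagen degradation and its inhibitors 4 fell and 3 did not pass (median -0.16), against 15.9% of all genes lowered. Only 2 fell with total library size, or without siCtrl replicate 3, siNONO replicate 1 or siNONO replicate 3. The metalloproteinase inhibitor Timp3 (-0.52 ± 0.11) and the collagen-cleaving cathepsin Ctsk (-0.32 ± 0.04) fell most.

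Of 27 tested regulators of collagen genes and mRNAs 5 rose and 5 fell (median -0.01), against 32.1% of all genes called in either direction. The raised count was 8 with total library size and 2 without siNONO replicate 1 or without siNONO replicate 3. The tendon transcription factor Scx (1.03 ± 0.175 to 1.97 ± 0.323 CPM, 0.93 ± 0.21) and the TGF-beta feedback inhibitor Smad7 (0.28 ± 0.07) rose most. Skil (0.25 ± 0.08), Sp3 (0.16 ± 0.05) and Ski (0.14 ± 0.04) also rose, and Cebpb (-0.23 ± 0.05) fell. The growth factors Tgfb3 (-0.40 ± 0.06, adjusted p = 0.000140) and Tgfb1 (-0.38 ± 0.05, adjusted p = 7.15e-05), which are known inducers of collagen genes, fell most. Also lowered, and chosen after their values were seen, were Larp6, which encodes the protein that binds the 5' stem-loop of collagen I and III mRNAs (12.3 ± 0.384 to 10.1 ± 0.390 CPM, -0.28 ± 0.07, adjusted p = 0.00975), and Creb3l1, a secretory-pathway transcription factor of collagen I (-0.25 ± 0.04, adjusted p = 0.000428). Over all these lists, with each gene counted once and the minor fibrillar collagens included, 14 of 87 tested genes rose and 28 fell, against 16.2% of all genes raised and 15.9% lowered. With total library size 20 rose and 24 fell, while over all genes that scaling gave 3174 raised and 1673 lowered. The raised count over the lists was 7 without siNONO replicate 1 and 9 without siNONO replicate 3.

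**Figure D5:**
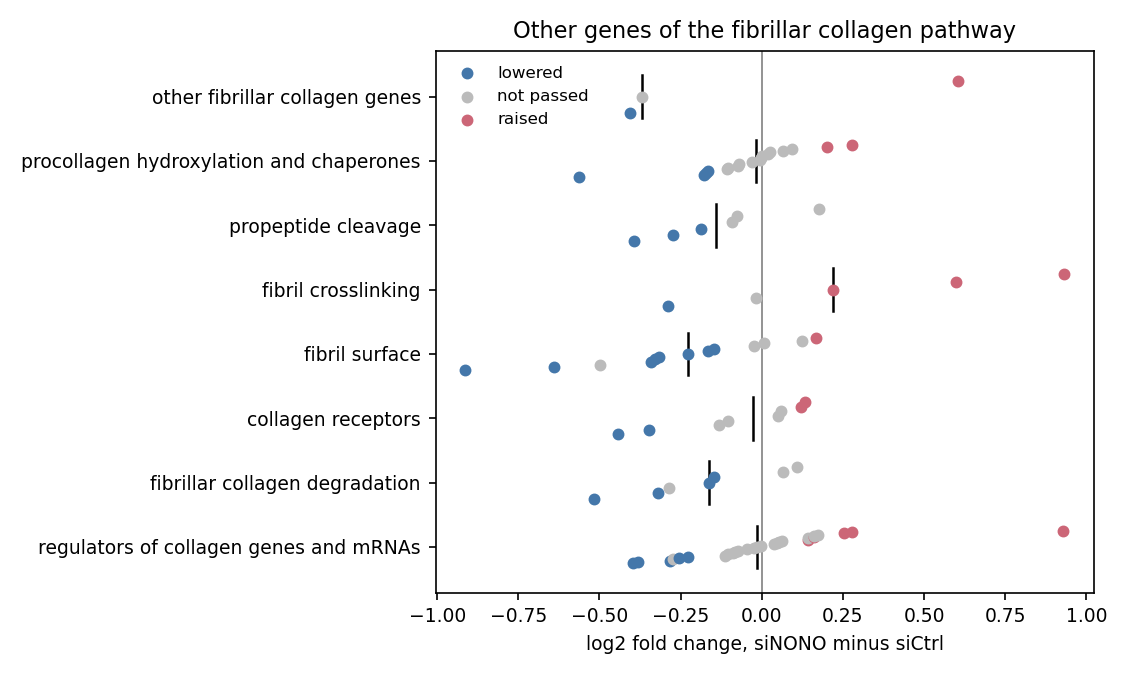
Log2 fold change of each tested gene in the lists of the fibrillar collagen pathway; each point is a gene (red raised, blue lowered, grey not passed by edgeR) and the black line marks the list's median. Lysyl oxidase genes have the highest median (0.22), and apart from the minor fibrillar collagens (-0.37) the fibril surface genes have the lowest (-0.23).

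Of 6886 candidate genes with at least 20 CPM, those whose log2 CPM followed each chain most closely over the 6 libraries were found by Pearson's r. For Col5a2 these were Cebpz, Hdlbp and Adamtsl1 (each 0.997), and for Col5a3 Sgcb (1.00), R3hdm1 (0.999) and Pias2 (0.998). For Col11a1 they were Usp16 (0.999), Cdk8 and Rnf149 (both 0.994), and for Col5a1 Sulf1 (0.997), Pip5k1c (0.991) and Gatad1 (0.990). For Col1a1 they were Pacsin2, Gata4 (both 0.992) and Antxr2 (0.983), for Col1a2 Rbm6 (0.996), Cavin2 (0.978) and Wdtc1 (0.976), and for Col3a1 Pelp1 (0.953), Car2 (0.951) and Rit1 (0.944). These values share the same 6 libraries and, for the called chains, the same step between groups, which alone gives a high r.

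In the gene order of the GRCr8 assembly the chains had 12 neighbouring tested genes that are not fibrillar collagens, and 5 of these (41.7%) were called, against 32.1% of all genes. Wdr75, on the other side of Col5a2 from Col3a1, had -0.04 ± 0.05 (adjusted p = 0.578), so that both neighbours of Col5a2 did not pass. Gulp1, on the other side of Col3a1, fell by 0.25 ± 0.08 at about 10 CPM (adjusted p = 0.0268), a call lost without siCtrl replicates 1 or 3 or siNONO replicates 1 or 2 (up to 0.0904). Near other chains Olfm1 (-0.62 ± 0.11), Olfm2 (-0.83 ± 0.24, lost without siCtrl replicates 1 or 2 or siNONO replicate 1, adjusted p up to 0.0787) and S1pr1 (-0.80 ± 0.13) fell, and Shfl (0.39 ± 0.06) rose. Sgca, whose annotation overlaps that of Col1a1, had 1.40 ± 0.0583 CPM in siCtrl and 0.877 ± 0.191 CPM in siNONO. The use of strand in counting is not given in the sources used here, so reads of such pairs cannot be told apart.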

How the data were processed

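The deposited count table gives raw read counts per gene as whole numbers, and the authors' FPKM table, with 2 decimals, holds 21081 of its 21378 genes. HISAT2, edgeR and the build mRatBN7.2 are named per the submitters' processing notes, and the kit was stranded per the labels' protocols. Versions, the counter and its strand setting were not given in the sources used here. There were 0 columns of other samples. Samples were grouped by title. Replicates differed beyond counting noise (chi-square per degree of freedom 3.33 to 8.05).

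The tests ran under R 4.3.3 and edgeR 4.0.16: filterByExpr (14412 genes), TMM, quasi-likelihood test, two-sided, 4 residual degrees of freedom, biological coefficient of variation 4.82%, Benjamini-Hochberg over all genes tested, threshold 0.05. SE was the log2 fold change over the square root of F. FPKM ratios were compared by exact two-sided permutation. No test was made of summed shares. Fits under alternatives also used limma 3.58.1 and DESeq2 1.42.0, and figures matplotlib 3.10.9. Likeness was Pearson's r of log2(CPM + 0.5). In 5 simulated draws of siNONO against siCtrl over 14412 genes with 200 changed, 45.2% of 1.2-fold, 78.4% of 1.5-fold, 90.8% of 2-fold and 97.2% of 4-fold changes were recovered, and 9.10% of calls were false. Far fewer genes changed in the draws than the 4630 called in the data, and changed genes were drawn at all levels. Recovery in this comparison, and for the collagens, may therefore differ. The limit of 3 counts covers counting error only.

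The genes and lists were chosen with earlier results of these data known. Named were the 7 collagens, Nono, the other fibrillar collagen genes and up to 2 raised and 2 lowered genes per list. Also named were the 3 genes most alike in pattern to each chain and its called neighbours. Outside this rule were Wdr75, which was not called, and Sgca, for which no test result is given. So were the genes said to be chosen after their values were seen and the other called regulators. Gene order came from RefSeq GRCr8, another build, so no coordinates are printed, and no sequences were used here.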

Additional observations from a re-analysis of the deposited data

How the results depend on the processing

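The count of raised collagens was 1 in all 22 alternatives and that of lowered ones 2 to 4, also over the fits without 1 library, and the directions of all 7 held except for Col3a1. Col3a1 had -0.002 with DESeq2 size factors, -0.011 with upper-quartile factors, -0.001 with the DESeq2 Wald test, -0.017 with a length correction, -0.015 with that and the replicate block, and -0.044 to 0.074 without 1 library. Wdr75, a neighbour of Col5a2, had 0.010 with total library size and 0.009 in the 3 fits of FPKM. The difference in the summed share of raw counts was -0.0210 to 0.141 percentage points without 1 library. A raw share cannot depend on size factors, so sums rescaled by them are another quantity. Those differed by -0.0677 with DESeq2 size factors and by -0.0855 with upper-quartile factors. Pathway genes raised were 6 at a threshold of 0.01 and 7 to 16 without 1 library, against 14. Over all genes, 2338 were raised and 2292 lowered, against 1428 and 1424 at 0.01, 2829 and 1546 with limma on log2(FPKM + 1), 2687 and 1424 in that fit with a minimum of 1 FPKM added, and 3174 and 1673 (65.5% raised, against 50.5%) with total library size. The causes of these differences were not tested, apart from the stricter threshold. All 8 ratios kept their direction when 1 library was left out. They also did so with counts in place of FPKM and with the replicate block, but these checks could hardly differ. Gene length nearly cancels when a ratio is compared between libraries, and a block leaves the mean difference of balanced groups unchanged. No permutation p could pass 0.05 in this design.

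Same-numbered libraries did not deviate together (r of -0.047, -0.086 and -0.007 over genes). No pairing by number was thus seen, although this cannot show how the libraries were prepared. With a replicate block 1894 genes were raised and 1863 lowered, and Col5a1 did not pass (adjusted p = 0.0785), which left 2 lowered collagens. With both the block and a length correction Col5a1 (0.00582) and Col1a1 (0.0129) passed. Depth limits the minor chains: counting error is 8.55% for Col27a1, 10.7% for Col24a1 and 17% for Col11a2.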
